A study of Mus musculus with 6 samples.

Results

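The 5 genes Ahr, Tiparp, Rora, Il23r and Il1r1, which link the aryl hydrocarbon receptor, the ROR nuclear receptors and cytokine receptors of the Th17 lineage, were followed in sorted mouse follicular helper T (Tfh) cells. They were taken by gene symbol from the deposited table, where each of the 5 matched 1 of 47729 listed genes. The series compares spleen Tfh cells from 3 samples with the label Cbl-/-Cbl-b-/- (double knockout of the ubiquitin ligase genes Cbl and Cblb) with 3 samples given as wt ctrl, and asks how the ICOS-CBL axis bears on the Tfh programme. Both groups had received the hapten-carrier antigen NP-OVA by intraperitoneal injection, and cells were sorted by flow cytometry on CD4, TCR beta, high PD-1 and high CXCR5. The labels do not say how the alleles were made, how old the mice were or whether each sample was 1 mouse. The p-values therefore rest on the spread among samples, which may be technical.

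AHR is a ligand-activated transcription factor that resides in the cytosol with chaperones, enters the nucleus when it binds a ligand and pairs there with ARNT. In T cells it is best known from Th17 cells and regulatory cells. RORA is a nuclear receptor that promotes the Th17 fate, in which the receptors for IL-23 and IL-1 sustain and expand the cells. In the germinal centre, IL-1 acts on Tfh cells through IL1R1, and the decoy receptor IL1R2 is known from follicular regulatory T cells.

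Whole libraries held 23392254 to 38368885 reads assigned to genes. The T cell and Tfh identity of the sort was visible in every library: Cxcr5 stood at 29321 to 44577 normalised counts, Cd4 at 64794 to 82665, and Cd8a at no more than 3.58. Cd8b1 was not absent, with 109 to 188 in the double knockout and 420 to 510 in the control. Of the targeted genes, Cbl had 2221 to 3856 normalised counts in the double knockout and 8614 to 12945 in the control, and Cblb 7459 to 8054 and 6955 to 10037; these are whole-gene totals, so the overlap for Cblb does not check its label. The double knockout libraries held 7.17 to 10.7 normalised counts summed over 4 Y-linked genes against 7260 to 9514 in the controls. Xist ran the other way, with 12769 to 18100.5 in the double knockout and 53.3, 970 and 12.9 in control replicates 1 to 3. Sex and genotype therefore cannot be told apart in any comparison here. The source of the higher Xist count in control replicate 2 was not tested. Double knockout replicate 2 stood apart by Foxp3, which marks regulatory T cells, with 5451 normalised counts against 149.6 to 768 in the other 5 libraries. Double knockout replicate 1 had the lowest Hspa1a, a heat shock gene, with 2779 against 12968 to 27045 elsewhere.

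Ahr and Tiparp were higher in the double knockout, Il23r was higher in every double knockout library without passing the main test, and Rora and Il1r1 overlapped between the groups. Of the 5 genes, all of which passed the filter on low values, 2 passed the test and both rose (limma on log2(normalised count + 1), adjusted p below 0.05 over all genes). Of all 13602 genes tested, 2.93% passed, and 1.85% passed as higher; edgeR on the recovered reads called the same 2 of the 5 and 2.98% of all genes. For 3 of the 5, all 3 double knockout libraries exceeded all 3 controls, which held for 12.3% of all genes tested. Each fold change below is a difference of group means, double knockout less control, of log2(normalised count + 1), and SE is the standard error of that difference. In such bulk samples, more cells of a type and more RNA per cell cannot be told apart.

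**Figure D1:**
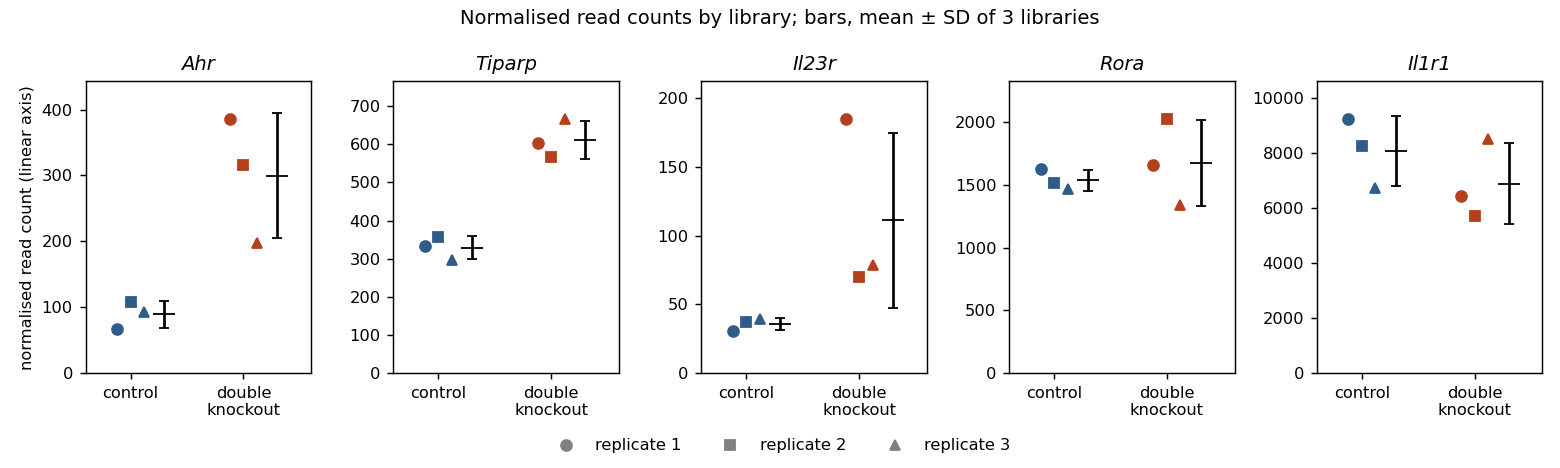
Normalised read counts (linear axis from 0, own scale per gene) of the 5 genes in 3 control (blue) and 3 double knockout (red) libraries, with marker shape for the replicate number and black bars for mean ± SD. Ahr, Tiparp and Il23r are separated between the groups, with Il23r spread most in the double knockout (69.6 to 184.5), while Rora and Il1r1 overlap.

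Ahr (ENSMUSG00000019256, GRCm38 chromosome 12, 35497974 to 35535038, minus strand) encodes the ligand-activated receptor itself. Its normalised counts were 385, 315 and 198 in double knockout replicates 1 to 3 and 67.7, 108.3 and 92.8 in control replicates 1 to 3. The lowest double knockout library was thus above the highest control. The means were 299.5 ± 94.8 (SD, n = 3) and 89.6 ± 20.5 (SD, n = 3), a ratio of 3.34. On the log2 scale this was a difference of 1.70 ± 0.30 (SE), with a 95% confidence interval of 1.01 to 2.40 and a limma adjusted p of 0.0276. In fits that left out 1 library each, the estimate ran from 1.50 to 1.97, and the call held in 2 of 6 fits, those without double knockout replicate 2 or 3.

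Tiparp (ENSMUSG00000034640, chromosome 3, 65528410 to 65555518, plus strand) encodes PARP7, a mono-ADP-ribosyltransferase that AHR induces in many cell types and that restrains AHR in return. It stood at 603, 566 and 666 in the double knockout and at 334, 356 and 297 in the control. The replicates lay close together in both groups, and the groups were well apart. The means were 612 ± 50.4 and 329 ± 30.2 (SD, n = 3 each), a ratio of 1.86. On the log2 scale the difference was 0.89 ± 0.14 (SE; 95% confidence interval 0.56 to 1.22; limma adjusted p = 0.0218). Of the 5 genes its estimate varied least, from 0.82 to 0.95 with each library left out, yet the call held in 1 of those 6 fits, without double knockout replicate 2.

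Il23r (ENSMUSG00000049093, chromosome 6, 67422932 to 67491855, minus strand) encodes the chain that makes the IL-23 receptor specific for IL-23. It was rare, with 27 to 43 reads per control library and 85 to 180 per double knockout library. The double knockout libraries had 184.5, 69.6 and 78.7 normalised counts and the controls 30.8, 37.0 and 39.5. Replicate 1 was far above the other double knockout libraries, and all 3 were above the controls. The means were 111.0 ± 63.8 and 35.8 ± 4.5 (SD, n = 3 each), a ratio of 3.10, and the log2 fold change was 1.47 ± 0.40 (SE; 95% confidence interval 0.55 to 2.39; limma adjusted p = 0.10). Without double knockout replicate 1 the estimate was 1.04. The gene passed as higher with DESeq2 on the recovered reads (adjusted p = 0.00998; 4.88% of genes passed as higher there), in the authors' deposited table (adjusted p = 0.00652; 4.1% passed as higher) and with library weights in limma (adjusted p = 0.0146), but not with edgeR (adjusted p = 0.0937).

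Rora (ENSMUSG00000032238, chromosome 9, 68653786 to 69388246, plus strand) encodes a nuclear receptor that acts in Th17 cells. It stood at 1653, 2021 and 1341 in the double knockout and 1628, 1517 and 1464 in the control. The double knockout libraries spanned the whole range of the controls. The log2 fold change was 0.10 ± 0.15 (SE; 95% confidence interval -0.25 to 0.46; limma adjusted p = 0.808), and it turned to -0.04 without double knockout replicate 2. Il1r1 (ENSMUSG00000026072, chromosome 1, 40225080 to 40317257, plus strand) encodes the signalling receptor for IL-1. It stood at 6427, 5721 and 8522 against 9228, 8266 and 6735, with overlapping groups. The log2 fold change was -0.24 ± 0.17 (SE; 95% confidence interval -0.64 to 0.16; limma adjusted p = 0.556), negative in all 6 fits with a library left out (-0.40 to -0.11). For both genes the interval leaves room for small differences in either direction.

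**Figure D2:**
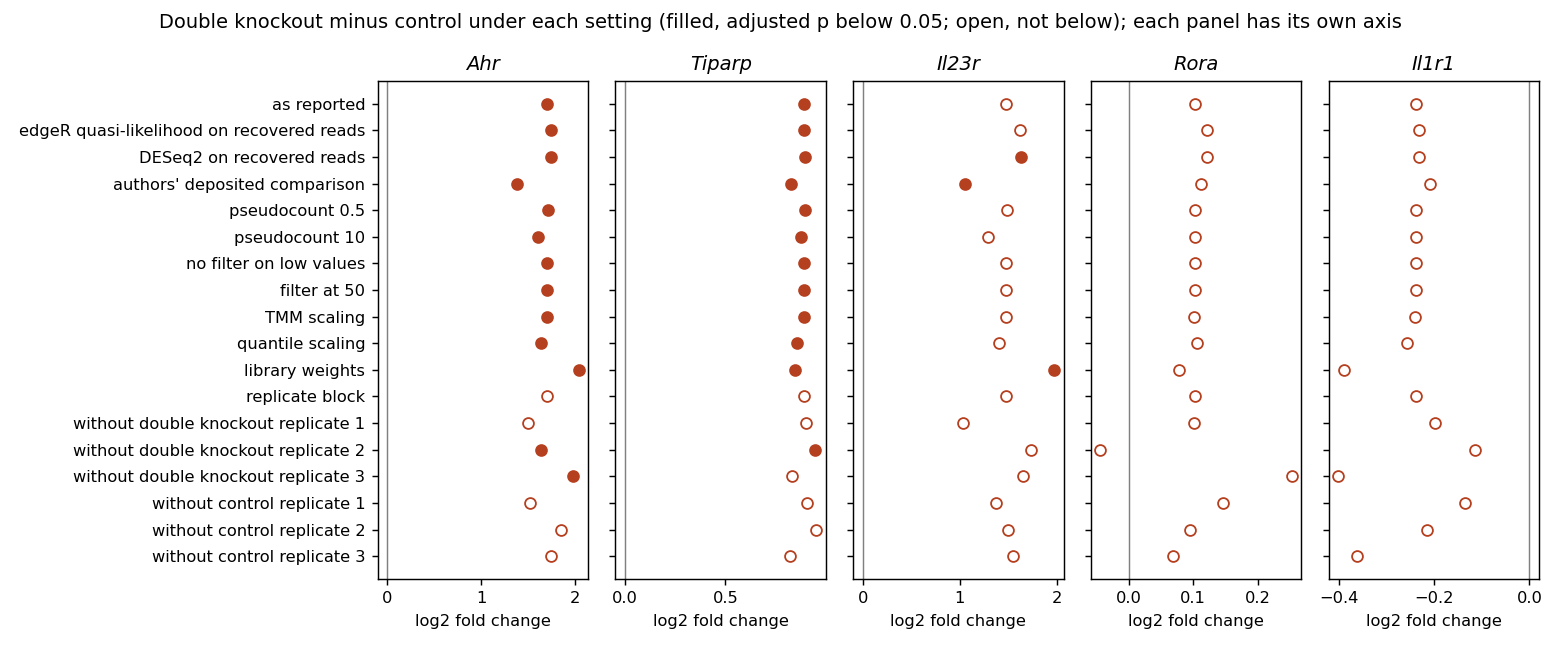
Log2 fold change of each gene (double knockout minus control, own axis per panel) under the test as reported and 17 other settings in rows, with filled points where the adjusted p was below 0.05. Ahr and Tiparp keep their sign and size while their call ends in 5 and 6 settings, Il23r passes in 3, and Rora and Il1r1 pass in none.

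Per kilobase of exon, which allows genes to be set side by side, Il1r1 was by far the most abundant of the 5. In the control it had 1269 ± 198 (SD, n = 3) normalised counts per kilobase, above 90.7% of 13557 tested genes with a known length. Rora followed with 118 ± 6.38, Tiparp with 75.5 ± 6.93, Ahr with 14.5 ± 3.32 and Il23r with 14.4 ± 1.81. Ahr and Il23r did not differ beyond their spread, and each lay above 14.4% of the tested genes. In the double knockout the order of Tiparp and Rora was no longer resolved, at 140 ± 11.6 and 128 ± 26.0. Ahr, at 48.6 ± 15.4, and Il23r, at 44.6 ± 25.7, again overlapped.

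Promoter windows were read for letters that AHR and ROR proteins are known to bind. Tiparp, Il23r, Rora and Il1r1 had an entry in the RefSeq promoter table (build GRCm38.p6), with 2 start sites for Il1r1, and Ahr was not matched. The 250 bases before each start were searched on both strands. The letters searched were GCGTG (reverse CACGC), the core of the AHR-ARNT element, and AGGTCA (reverse TGACCT), a core that ROR proteins share with many other nuclear receptors. These 2 motifs share no overlapping match in the windows shown. The windows of Tiparp, Il23r and the downstream Il1r1 start are shown as examples of the matches. The sequences are 5′ to 3′ on the gene's strand, and capitals mark the matches.
Tiparp, chr3:65528197-65528446, plus strand: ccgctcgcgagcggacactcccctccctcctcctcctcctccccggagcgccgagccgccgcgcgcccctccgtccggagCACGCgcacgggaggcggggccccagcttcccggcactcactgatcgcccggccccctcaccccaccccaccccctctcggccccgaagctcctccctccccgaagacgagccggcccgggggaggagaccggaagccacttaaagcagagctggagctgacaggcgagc
Il23r, chr6:67491856-67492105, minus strand: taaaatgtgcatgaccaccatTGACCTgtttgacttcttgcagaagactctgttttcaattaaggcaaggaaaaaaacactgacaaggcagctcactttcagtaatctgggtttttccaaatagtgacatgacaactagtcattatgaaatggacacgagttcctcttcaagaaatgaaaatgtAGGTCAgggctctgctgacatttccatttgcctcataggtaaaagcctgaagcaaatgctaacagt
Il1r1, downstream start site, chr1:40266336-40266585, plus strand: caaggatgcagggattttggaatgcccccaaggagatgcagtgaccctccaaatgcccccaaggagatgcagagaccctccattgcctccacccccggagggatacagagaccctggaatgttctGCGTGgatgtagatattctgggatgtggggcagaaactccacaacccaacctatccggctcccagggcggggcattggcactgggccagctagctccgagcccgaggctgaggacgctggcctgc
The Tiparp window held 1 AHR-ARNT core, starting 170 bases before the start site, and no AGGTCA. The Il23r window held AGGTCA 2 times, starting 229 and 66 bases before the start, and no AHR-ARNT core. The window of the downstream Il1r1 start held 1 core, as did that of Rora, so the core was present at genes of either outcome. The window of the upstream Il1r1 start held neither motif. Of all 32851 windows of this length, 28.2% held the AHR-ARNT core, 14.0% held AGGTCA, and 1.36% held AGGTCA at least 2 times. The matches describe letters and do not show binding.

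Among the AHR pathway genes, the receptor and a feedback gene rose, while the partner Arnt and the tested chaperones did not pass and most xenobiotic enzymes were too low to be tested. The list, written from general knowledge, held 27 genes including Ahr and Tiparp, of which 18 were tested: 3 rose (1.85% of all genes tested passed as higher), none fell and 15 did not pass. Its median log2 fold change was 0.04, and -0.01 over the 16 tested genes other than Ahr and Tiparp. The median of all genes tested was -0.0011. Besides Ahr and Tiparp, Asb2 rose. Asb2 encodes a substrate adaptor of a cullin-RING ubiquitin ligase. It stood at 16823, 16540 and 15900 normalised counts against 8218, 7527 and 10342, with a log2 fold change of 0.93 ± 0.13 (SE; limma adjusted p = 0.0136). Its call held in 3 of 6 fits with a library left out.

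Arnt, the obligate partner of AHR, had 3216, 3350 and 2778 against 3164, 2859 and 2797 (log2 fold change 0.08 ± 0.11; limma adjusted p = 0.78). Per kilobase there was 20.3 to 36.0 times as much Arnt as Ahr in the controls and 6.42 to 10.8 times as much in the double knockout. The classical targets Cyp1a1, Cyp1b1 and Ahrr were at or near the floor and were not tested. Cyp1a1, the AHR-induced monooxygenase, had 3.07, 7.37 and 0.89 in the double knockout and 7.18, 15.1 and 0 in the control, and Cyp1b1, its relative, had 0 to 1.02 and 0.92 to 5.48. Ahrr, the AHR repressor, had no read in any library, and a count of 0 allows up to 3 reads per library by counting error alone. Gstm1, a glutathione transferase gene that was tested and may share reads with close paralogs, had 29.7, 30.3 and 34.0 in the double knockout and 93.3, 98.7 and 37.7 in the control. Every double knockout library was below every control, without passing (-1.14 ± 0.41; limma adjusted p = 0.201). Nqo1, another enzyme gene of this list, was also tested and overlapped between the groups. It had 23.6, 4.92 and 10.7 in the double knockout and 20.5, 13.7 and 20.2 in the control (-0.66 ± 0.58; limma adjusted p = 0.643).

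In the ROR and Th17 list, Il23r had a high estimate without passing, and the signature cytokines were rare. Of 37 genes, 31 were tested, Ahr and Socs3 rose (1.85% of all genes tested passed as higher), none fell, and 29 did not pass. The median log2 fold change was 0.10, which is the value of Rora itself, and 0.03 over the 27 tested genes other than Ahr, Rora, Il23r and Il1r1, against -0.0011 for all genes tested. Every double knockout library was above every control for 8 of the 31 genes (12.3% of all genes tested) and below for 3 (11.3% of all). Socs3, the feedback inhibitor of gp130 cytokine signalling, had 3792, 3949 and 2434 against 901, 1229 and 1610 (1.45 ± 0.25; limma adjusted p = 0.0256), and its call ended on leaving out double knockout replicate 1, control replicate 1 or control replicate 2.

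Il17a, the signature Th17 cytokine, had 87.1, 29.5 and 2.68 normalised counts against 2.05, 0 and 5.51, and Il17f had 25.6, 19.7 and 0 against 0, 0 and 1.84. Neither passed the filter on low values, and double knockout replicate 3 was within the control range for both. Il22, an AHR-dependent cytokine of Th17 cells and innate cells, had 48.7 ± 28.2 against 64.4 ± 25.2 (-0.55 ± 0.58; limma adjusted p = 0.703). The chemokine receptor Ccr6 had 266 ± 105 against 165 ± 56.0 (0.65 ± 0.39; limma adjusted p = 0.456), and the estimate ran from 0.34 without control replicate 2 to 1.04 without double knockout replicate 3.

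**Figure D3:**
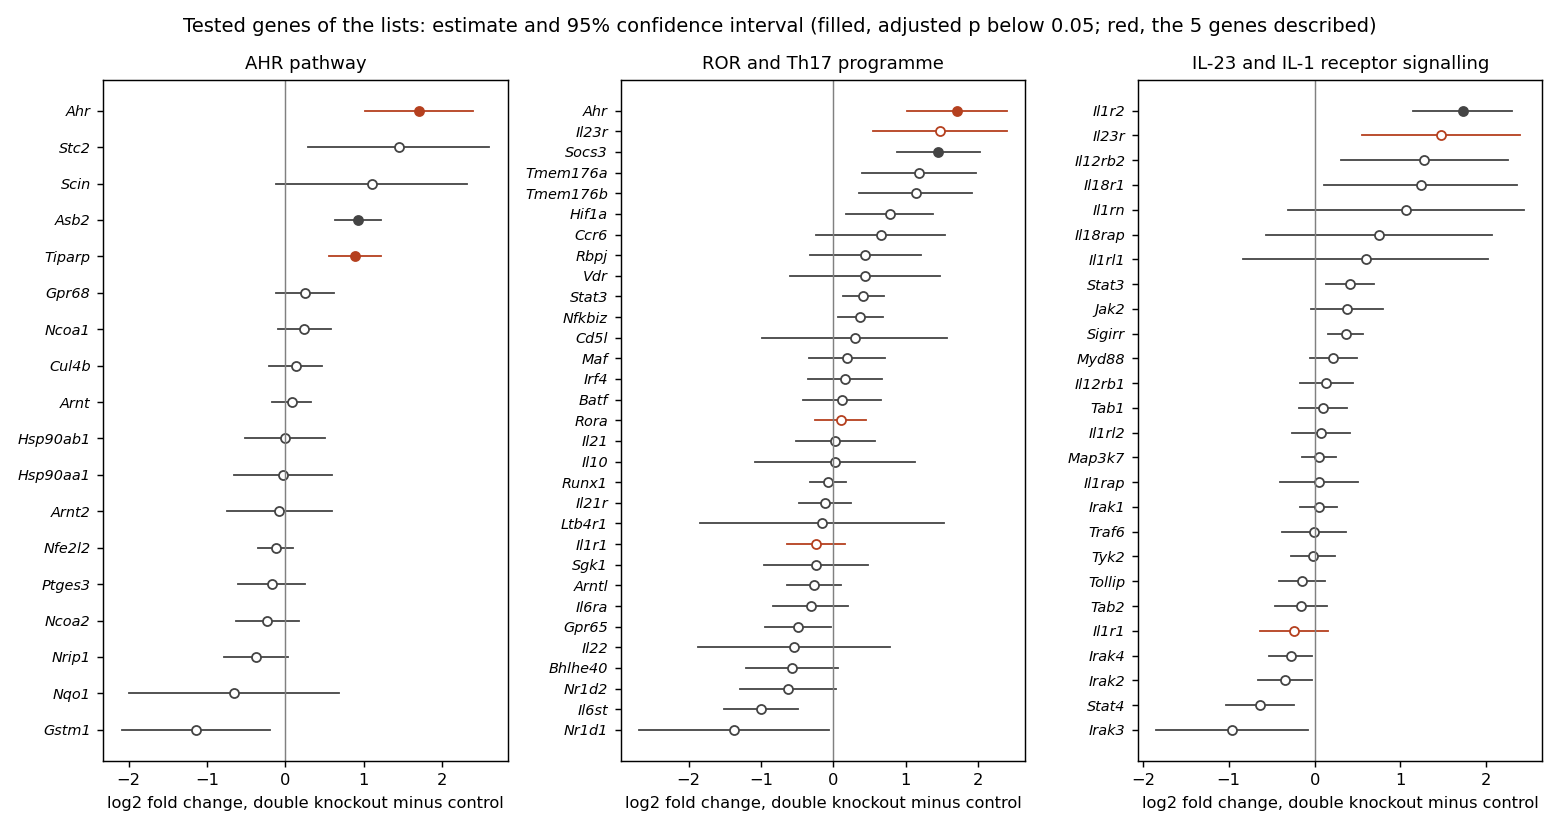
Log2 fold change (double knockout minus control) with its 95% confidence interval for every tested gene of the 3 lists, ordered by estimate; filled points had a limma adjusted p below 0.05, and the 5 genes described are red. The AHR list has 3 filled points, the ROR and Th17 list 2 (Ahr again and Socs3) and the receptor list 1 (Il1r2), all to the right of 0.

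Among 30 genes of IL-23 and IL-1 receptor signalling, 26 were tested, and the decoy receptor Il1r2 rose while none fell and 25 did not pass. This 1 of 26 is near the share over all genes, of which 1.85% passed as higher. The median log2 fold change was 0.09. Il1r2, which binds IL-1 without signalling, stood at 1663, 1046 and 2134 in the double knockout and 399, 503 and 512 in the control. The lowest double knockout library was above the highest control. The difference was 1.72 ± 0.25 (SE; limma adjusted p = 0.0157), and the call held in 3 of 6 fits with a library left out. Per kilobase, Il1r2 came to 0.144 to 0.253 times the level of Il1r1 in the control libraries and 0.61 to 0.863 times in the double knockout. Il1rap, the shared signalling chain of IL-1 receptors, had 610 ± 154 against 578 ± 60.0 (0.05 ± 0.20; limma adjusted p = 0.938), and its sign turned without double knockout replicate 2 or control replicate 1.

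**Figure D4:**
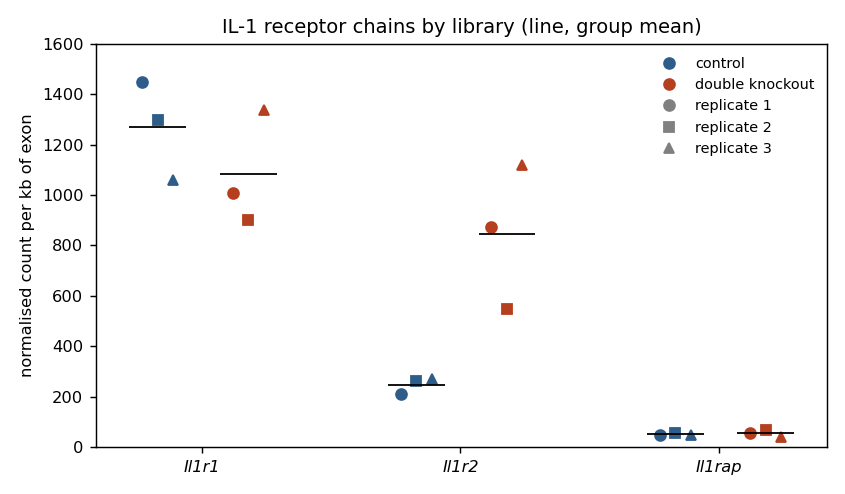
Normalised counts per kilobase of exon for the signalling receptor Il1r1, the decoy Il1r2 and the shared chain Il1rap in control (blue) and double knockout (red) libraries; shapes mark replicates and lines the group means. Il1r2 moves from 209 to 268 in the controls to 548 to 1119 in the double knockout, while Il1r1 and Il1rap overlap.

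The chains that pair with or compete beside IL23R were also measured. Il12rb1, which both the IL-12 and the IL-23 receptor use, had 1158 ± 97.1 against 1056 ± 136 (0.14 ± 0.13; limma adjusted p = 0.675). Per kilobase it exceeded Il23r by 17.8 to 18.0 times in the controls and 4.16 to 9.84 times in the double knockout, so Il23r was the scarcer chain throughout. Il12rb2, which makes the receptor specific for IL-12, had 1641, 761 and 1631 against 838, 583 and 291. The second double knockout library lay below the first control. On the log2 scale the difference was 1.28 ± 0.42 (SE; limma adjusted p = 0.165), with an adjusted p of 0.0179 with DESeq2 and 0.199 in the authors' deposited table.

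Among markers of innate-like T cells, most estimates were positive, while those that passed the test went both ways. The part of these markers in the results for Ahr and Il23r was not tested. Of 21 such markers, 18 matched a row and 13 were tested: 2 rose, 2 fell and 9 did not pass (2.93% of all genes tested passed). The median log2 fold change of the 13 was 1.18 (-0.0011 over all genes tested), with 9 positive and 4 negative estimates. Every double knockout library was above every control for 7 of the 13 (12.3% of all genes tested). Every one was below for 4 (11.3% of all). Their summed level was 27416 to 33895 in the double knockout and 22276 to 24573 in the control, and Klra1 was at 0 in all 6 libraries. Trdc, the constant segment of the T cell receptor delta chain, had 6352, 12060 and 5425 against 999, 902 and 815 (log2 fold change 3.05 ± 0.27; limma adjusted p = 0.00303), although the sort required TCR beta. Id2, which opposes E proteins, rose as well (1.35 ± 0.15; limma adjusted p = 0.00733). Klrb1c, which encodes NK1.1 (-1.78 ± 0.36; limma adjusted p = 0.0428), and Cd160 (-0.92 ± 0.14; limma adjusted p = 0.0185) fell. Zbtb16, which encodes the NKT factor PLZF, had 207, 79.5 and 51.0 against 22.6, 28.8 and 5.51, without passing (limma adjusted p = 0.103). Replicate 1 was the highest double knockout library for Ahr, Il23r, Il17a and Zbtb16. Of the innate-like markers that passed the test, and within the double knockout group only, Trdc, Id2 and Klrb1c were highest in replicate 2 and Cd160 in replicate 1.

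**Figure D5:**
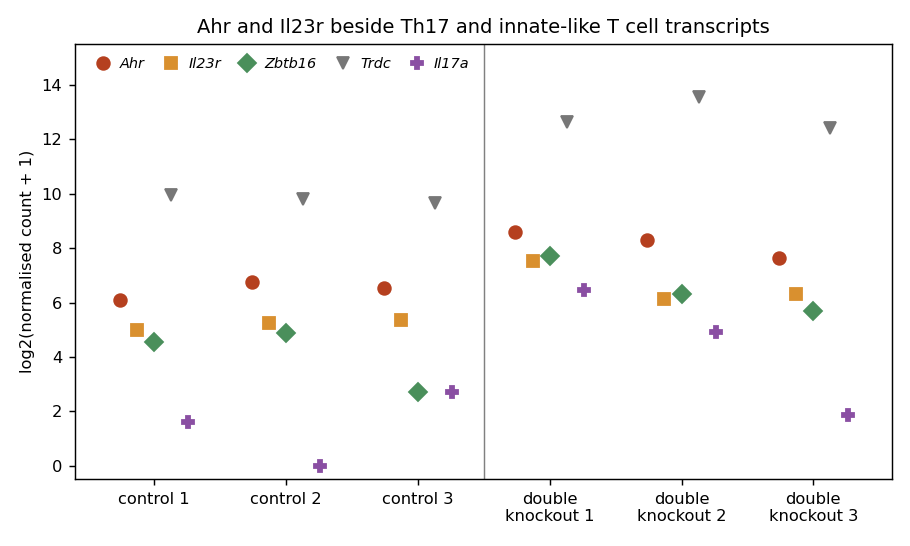
Log2(normalised count + 1) of Ahr, Il23r, the Th17 cytokine gene Il17a and the innate-like T cell genes Zbtb16 and Trdc in each of the 6 libraries. Ahr, Il23r, Zbtb16 and Trdc are higher in each double knockout library than in each control, and Il17a (0 to 5.51 normalised counts in the controls) is above the controls in double knockout replicates 1 and 2 but not 3. Klrb1c and Cd160 of the same marker list are lower in each double knockout library than in each control and are not plotted.

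Markers of other cells were read in the same way, and their part in the result was not tested either. For the counts below, 2.93% of all genes tested passed, and 1.85% passed as higher. Of 14 regulatory T cell markers, all tested, Tnfrsf4 (1.20 ± 0.17; limma adjusted p = 0.0157) and Capg (0.93 ± 0.16; limma adjusted p = 0.0274) rose, and the summed level was 26071 to 39914 in the double knockout against 23585 to 30861. Of the 14, 11 had positive and 3 negative estimates, with a median of 0.62 (-0.0011 over all genes tested). Every double knockout library was above every control for 5 (12.3% of all genes tested) and below for 1 (11.3% of all). Without the Foxp3-high library the log2 fold change was 1.64 for Ahr (limma adjusted p = 0.0487) and 0.95 for Tiparp (limma adjusted p = 0.027). Of the 6 fits that omit 1 library, the call held in 2 for Ahr and in 1 for Tiparp, this one included. This fit does not test the part of regulatory T cells. The 5 markers above every control, and the 1 below, stay so in the remaining double knockout libraries. Of 12 B cell markers, 8 were tested and none passed. Their sum was 1953 to 2650 against 1754 to 3002, mostly Pax5 and Cd22, and Cd79a was at 7.16 to 22.9 against 27.4 to 53.3. Of the 8 tested, 7 had negative estimates, with a median of -0.61. Every double knockout library was below every control for 4 of them (11.3% of all genes tested). Of 18 macrophage, dendritic cell and neutrophil markers, 9 were tested and none passed, with sums of 474 to 761 against 412 to 456, led by Cd68 and Mpeg1. Cd68 had 322, 173 and 546 against 88.2, 108.3 and 116.6 (limma adjusted p = 0.0745), whereas Mpeg1 overlapped (83.9 ± 9.61 against 85.0 ± 21.6), 6 of the 9 had negative estimates and the median was -0.67; Ly6g and Cd209a were at 0. Of 12 stromal and endothelial markers, 3 were tested, and Dcn, which encodes the matrix protein decorin, rose: it had 0 to 0.92 normalised counts in the controls and 10.7 to 124 in the double knockout (limma adjusted p = 0.0276). Ccl19, Pdgfra and Pdpn were at 0. The 15 T cell and Tfh identity genes summed to 414812 to 437450 in the double knockout and 514454 to 557330 in the control. Much of that gap was Trac, the constant segment of the T cell receptor alpha chain, with 149423, 171176 and 149100 against 258497, 232038 and 267699 (-0.69 ± 0.16; limma adjusted p = 0.0667). Cxcr5, Pdcd1, Bcl6 and Icos overlapped between the groups, but other genes of this list did not. Of the 14 tested, 10 had negative estimates. Every double knockout library was above every control for 2, Ascl2 and Cd3e (12.3% of all genes tested). Every one was below for 3, Cd4, Trac and Cd8b1 (11.3% of all). Ascl2 had 2380, 1096 and 5193 against 632, 618 and 309 (2.27 ± 0.52, limma adjusted p = 0.0638). Cd8b1 alone of the 14 tested passed, as lower (-1.83 ± 0.24; limma adjusted p = 0.0123). Of 15 heat shock and dissociation stress genes, 14 were tested and Ier2 alone passed, as lower (-0.57 ± 0.12; limma adjusted p = 0.0421), with sums of 157114 to 220969 against 256089 to 307260. Yet 13 of the 14 had negative estimates, with a median of -0.56. Every double knockout library was below every control for 7 of them (11.3% of all genes tested).

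The genes whose profiles over the 6 libraries were closest to each of the 5 were found by the root mean square difference of log2 values, each gene centred on its own mean. Closest to Ahr were BC049352 (difference of 0.101 on the log2 scale) and the interferon-stimulated genes Oas3 (0.161) and Usp18 (0.178). Closest to Tiparp were Fbf1 (0.0706), Pdk1 (0.0726), which encodes a kinase that restrains pyruvate dehydrogenase, and Litaf (0.0755). The kinase gene Sik1 (0.204), the cytokine gene Tgfb3 (0.238) and Clic4 (0.268) were closest to Il23r. Sik1 had 1703, 831 and 615 against 257, 388 and 398, so that it shared the high value in double knockout replicate 1. Rora was closest to Dgke (0.0352), Tmem39a (0.0562) and Zfyve27 (0.0562), and Il1r1 to Nr2f6 (0.0632), Amacr (0.0761) and Zfp109 (0.0814). All 6 libraries enter each difference, and genes with a group difference are close to others with a like one.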

How the data were processed

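RNA of 6 sorted Tfh samples was measured by sequencing. Per the file headers, the deposited signal is each gene's read count after scaling to library size by the authors. In the submitters' processing notes, GRCm38, DESeq2 1.12.3, featureCounts 1.4.6 and STAR 2.5.1b appear without roles. The strand setting and the annotation were not given in the sources used here. Reads of overlapping genes may be mixed. The authors' deposited table also holds p-values, a score from their test, log2 fold changes and the errors of these, used as an alternative.

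Dividing each library by its smallest positive value gave whole reads (100% within 0.001 of a read). Genes with a value of at least 10 in at least 3 libraries were tested with limma-trend 3.58.1 (R 4.3.3) on log2(value + 1), two-sided, with genotype as the only term and Benjamini-Hochberg adjustment over 13602 genes. The test was checked on simulated counts in which every gene had the same dispersion (spread beyond counting error). That check therefore does not give the power of the test for the genes described here. Replicates differed by more than sampling noise (chi-square over degrees of freedom, 10.5 to 95.2 within groups). Alternatives changed the pseudocount (0.5 or 10), the filter (none, or 50), the scaling (TMM, quantile), the libraries (weights, a replicate block, each left out) or the test (edgeR 4.0.16 or DESeq2 1.42.0 on whole reads, or the deposited comparison). The genes, lists and tests were chosen with earlier results of these data known, and 2 genes first put in the AHR and Th17 lists are not reported here or counted in them. Named genes were the 5 members, a fixed set of partners and targets, list genes that passed, leading markers and the 3 closest profiles (protein-coding, mean of at least 50). Hspa1a, Foxp3, Zbtb16, Cd8a, Cd79a, Gstm1, Nqo1, Cd68, Mpeg1, Trac, Ascl2, Cd3e and the genes in the closing section were named after their values were seen. Positions and exon lengths are from GENCODE M21 (GRCm38). Counting limits cover counting error only. Python 3.11.15 with pandas 2.3.3 and matplotlib 3.10.9 made the tables and plots.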

Additional observations from a re-analysis of the deposited data

How the results depend on the processing

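With the replicate number as a block, log2 fold changes were 1.70 for Ahr and 0.89 for Tiparp without passing (adjusted p = 0.0593 and 0.0533). The counts past the threshold were then 0 of the 5 genes, 1 in the AHR list, 0 in the ROR and Th17 list and 265 of all genes. Socs3 (1.45) also lost its call there. The numbers were not taken to pair the samples: same-numbered libraries deviated together with correlations of 0.054 to 0.092, under the limit of 0.1, although each library correlated best with its own number. Il23r passed with DESeq2 (1.63), library weights (1.97) and the authors' deposited comparison (1.05). The ROR and Th17 list had 8, 7 and 8 calls under these settings and the IL-23 and IL-1 list 7, 6 and 4, against 2 and 1 as reported. All genes gave 1096, 1368 and 993 calls against 398. The AHR list had 5 with library weights. With each library left out in turn, Ahr ranged from 1.50 to 1.97, Tiparp from 0.82 to 0.95, Rora from -0.044 (without double knockout replicate 2) to 0.25, Il22 from -0.90 to 0.089 (without double knockout replicate 1) and Il1rap from -0.13 (without double knockout replicate 2; -0.0047 without control replicate 1) to 0.25. The counts ranged from 0 to 2 of the 5 genes, 0 to 4 in the AHR list, 0 to 4 in the ROR and Th17 list, 0 to 3 in the IL-23 and IL-1 list and 58 (without control replicate 1) to 498 (without double knockout replicate 2) of all genes. Such fits have fewer libraries, and the cause of a lost call was not tested. Il23r and Il17a rest on few reads, and small differences in them were not detectable at this depth.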

Other observations

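Il6st, Stat3 and Hif1a of the Th17 list were picked after their values were seen and stand for no wider group. Il6st, which encodes the shared receptor chain gp130, had 10867, 18687 and 15154 normalised counts in the double knockout and 33061, 32973 and 22784 in the control, with no overlap (log2 fold change -1.004 ± 0.22; limma adjusted p = 0.0568; adjusted p = 0.000331 in the authors' deposited table). Stat3, the transcription factor downstream of it, had 16627 ± 1730.4 against 12492 ± 1379 (0.41 ± 0.12; limma adjusted p = 0.127). Hif1a, which favours Th17 over regulatory T cell fate, had 47240, 37999 and 73105 against 32496, 35289 and 22553 (0.78 ± 0.26; limma adjusted p = 0.17). Of these, none passed the main test.

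Within the IL-1 receptor family, Sigirr, an inhibitory member, had 2642, 2440 and 2475 against 1905, 2015 and 1961, a small difference with little spread (0.36 ± 0.09; limma adjusted p = 0.079). The IL-18 receptor chain Il18r1 had 737, 969 and 230 against 177, 293 and 241, so that double knockout replicate 3 lay within the control range (1.23 ± 0.49; limma adjusted p = 0.251). Stat4, which signals below the IL-12 and IL-23 receptors, had 4613, 4680 and 5554 against 9260, 8321 and 5884 (-0.64 ± 0.17; limma adjusted p = 0.0982).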
